A study of Arabidopsis thaliana with 8 samples.

Results

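Roots of wild-type Arabidopsis thaliana were compared with wild-type flowers, 1 RNA-seq library each, out of 8 libraries in the series. Both libraries are of the Col-0 accession, the standard laboratory strain, and neither carries a mutation; the other libraries of the series are wild-type leaves and siliques and the same 4 organs of clf-28, which was not used here. Roots were taken from plants 2 weeks old on MS (Murashige and Skoog) plates, and flowers from plants 5 weeks old in soil, both in long days at 22 °C. Organ, age and growth on plates or in soil therefore cannot be told apart in this comparison. Levels in wild-type leaves, which were collected as the aerial part of the same kind of plants as the roots, and in wild-type siliques, from the same kind of plants as the flowers, are given beside named genes. Whole organs were ground, and fewer cells of a type and less RNA per cell cannot be told apart.

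The deposited table holds 34759 rows, of which 34500 had a usable status in both libraries and 22531 had at least 1 FPKM (fragments per kilobase of transcript, scaled to library size) in roots or in flowers. These 22531 are called measured. Differences are log2((roots FPKM + 1) / (flowers FPKM + 1)), so a positive value means a higher level in roots, and the added 1 FPKM understates the differences of low genes. With 1 library per organ there is no replicate error and no test, so genes are described as at least 2-fold higher or lower in roots, or between, and by whether the authors' deposited lower and upper bounds of the libraries are separate. Those bounds cover quantification within a library only. They are wide: for rows of at least 1 FPKM the median upper bound was 2.37 times the FPKM in either library, and the lower bound was 0 for 89.8% of rows in roots and 89.6% in flowers. Where a gene is listed at 0, both of its bounds in that library are 0 as well. Separate bounds then rest on the lower bound of the other library alone.

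Roots take up water and mineral ions through hair cells and seal their vascular core with an endodermis that carries the Casparian strip, while their growth is fed by a stem cell niche at the tip. Flowers are built by combinations of MADS-domain transcription factors that assign sepals, petals, stamens and carpels, and the anther adds a nurse tissue, the tapetum, that coats the pollen. Sepals and young carpels are green, and roots are not.

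Some 3884 rows, 17.2% of those measured, were at least 2-fold higher in roots, and 5623, 25.0%, were at least 2-fold lower. Another 13024 lay between, and the median over all measured rows was -0.054. The counts given for gene lists below stand beside these shares of all measured rows. The larger the difference asked for, the fewer the rows on either side: at 8-fold 1021 rows were higher in roots and 1578 lower, at 32-fold 268 and 433, and at 128-fold 49 and 91. At least 10 FPKM in roots beside under 0.1 FPKM in flowers was found for 280 rows, 47 of them listed at 0 in flowers. The opposite, at least 10 FPKM in flowers beside under 0.1 FPKM in roots, was found for 540 rows, of which 223 were listed at 0 in roots. Separate bounds were rarer: 95 rows, 0.422%, were higher in roots with separate bounds, and 145, 0.644%, were lower.

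**Figure D1:**
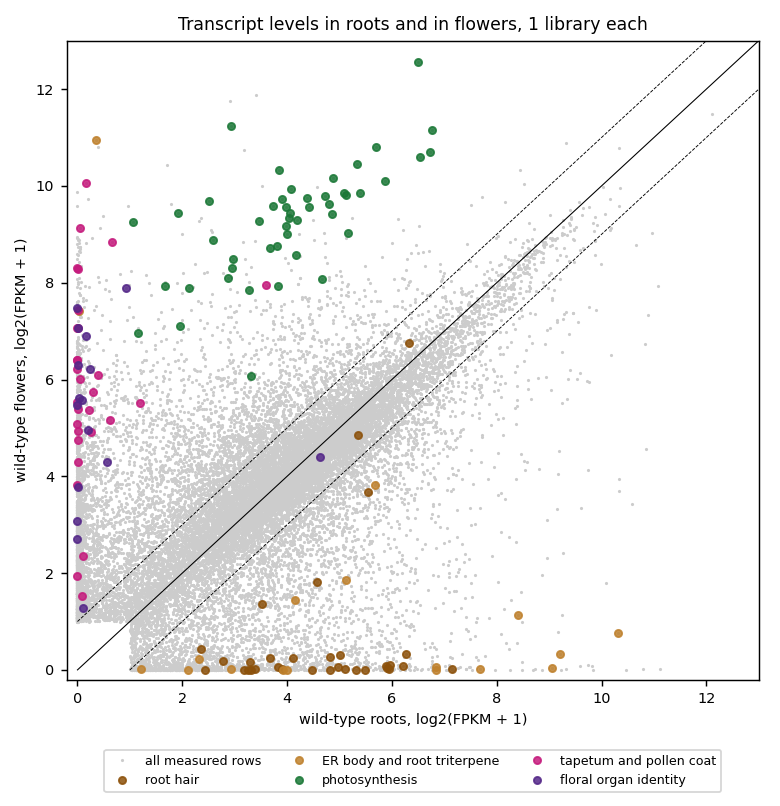
Each point is a measured row, with log2(FPKM + 1) in wild-type roots on the x axis and in wild-type flowers on the y axis; the solid line marks equal levels, the dashed lines 2-fold, and colours mark 5 gene lists. Most root hair genes lie near the bottom edge, except members such as SCN1 with 106.7 FPKM in flowers, and most tapetum genes near the left edge, except FLP1 with 11.1 FPKM in roots, while the 47 photosynthesis genes lie above the 2-fold line at intermediate root levels.

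Every measured marker of roots was higher in roots, and every marker of flowers lower. Of 8 root markers, 7 had a usable value, and their summed level was 724.8 FPKM in roots and 22 FPKM in flowers. PYK10, the beta-glucosidase of root ER bodies, is listed at 0 in roots with the authors' status for too many reads, and EXT3, an extensin, and AT3G09250 carry the same status there, so none of these 3 has a root value. NRT2.1, a high-affinity nitrate transporter, had 0.194 FPKM in roots and 0.0285 FPKM in flowers, under the minimum of 1 FPKM. The 8 flower markers summed to 1.5 FPKM in roots, with 3 of them listed at 0, and to 1715.8 FPKM in flowers. The 4 markers of green tissue (RBCS1A, CAB1, LHCB3 and PSAN) summed to 264.2 FPKM in roots, none of them at 0, and to 10741.1 FPKM in flowers. Seed markers (CRA1, CRU3, SESA1, SESA5 and OLEO1) summed to 30.1 FPKM in roots and 0.213 FPKM in flowers. The part of green tissue and of seed remains in the results was not tested.

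Root hair promoters are shown because a set of letters known from root hair genes stands in 9 of the 31 root hair genes with a promoter window and in 0.873% of 19591 measured genes. The window runs from 250 bases before to 50 bases after the RefSeq gene start (300 bases), read from the TAIR10.1 sequence, whose nuclear chromosomes carry the positions used by the deposited loci. The letters are those of the root hair element, searched on both strands. The root hair list and this element are not independent, since several RHS (root hair specific) genes are known for having been collected with its help. PRP3 encodes a proline-rich cell wall protein (chr3:23182472-23182771, plus strand), RHS13 a root hair specific protein of the same kind (chr4:992990-993289, minus strand), LRX1 a leucine-rich repeat extensin of hair walls (chr1:4069742-4070041, plus strand) and EXPA7 an expansin (chr1:4276255-4276554, plus strand). Capitals mark the element.
PRP3: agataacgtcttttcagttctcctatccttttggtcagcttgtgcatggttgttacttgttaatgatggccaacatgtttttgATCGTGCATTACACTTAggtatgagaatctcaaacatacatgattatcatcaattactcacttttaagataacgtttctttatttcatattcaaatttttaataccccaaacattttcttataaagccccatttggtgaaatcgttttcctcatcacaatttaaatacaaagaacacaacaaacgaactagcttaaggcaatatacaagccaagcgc
RHS13: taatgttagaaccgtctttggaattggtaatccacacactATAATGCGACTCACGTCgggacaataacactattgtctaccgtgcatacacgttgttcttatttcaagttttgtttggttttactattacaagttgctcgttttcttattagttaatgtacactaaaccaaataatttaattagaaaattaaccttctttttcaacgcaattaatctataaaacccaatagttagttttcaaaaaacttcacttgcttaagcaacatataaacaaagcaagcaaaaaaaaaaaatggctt
LRX1: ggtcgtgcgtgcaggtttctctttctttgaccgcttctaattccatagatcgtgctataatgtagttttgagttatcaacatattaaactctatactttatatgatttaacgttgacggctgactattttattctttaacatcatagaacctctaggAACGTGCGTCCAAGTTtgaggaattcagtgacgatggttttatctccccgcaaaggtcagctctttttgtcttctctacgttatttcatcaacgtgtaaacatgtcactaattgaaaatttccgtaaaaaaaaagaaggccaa
EXPA7: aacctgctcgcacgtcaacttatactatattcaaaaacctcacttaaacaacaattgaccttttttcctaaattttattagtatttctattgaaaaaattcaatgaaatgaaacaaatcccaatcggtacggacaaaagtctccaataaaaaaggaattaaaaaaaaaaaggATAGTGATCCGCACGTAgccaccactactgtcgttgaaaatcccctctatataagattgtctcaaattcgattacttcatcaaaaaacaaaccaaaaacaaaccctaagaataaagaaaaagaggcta

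The 4 genes of these promoters were high in roots and near 0 elsewhere. Root hair genes without the element in their window were also far higher in roots: EXT13 (7.13), EXT6 (5.93), EXT12 (5.93), EXT10 (5.86) and XTH14 (5.86). PRP3 had 73.3 FPKM in roots, against 0.0602 FPKM in flowers, a log2 difference of 6.13. RHS13 had 58.5 FPKM in roots, against 0.0594 FPKM in flowers (5.81), and EXPA7 30.4 FPKM in roots, against 0.0357 FPKM in flowers (4.92). LRX1 had 38.7 FPKM in roots and is listed at 0 in flowers. In the leaf library, which shares age and plates with the roots, the 4 genes had between 0.00596 FPKM (EXPA7) and 0.14 FPKM (PRP3).

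Of 40 root hair genes listed, 32 had a locus of their own and all 32 were measured: 30 were at least 2-fold higher in roots, 0 were lower and 2 lay between, with a median of 3.88 beside -0.054 over all measured rows. The wall proteins led the list. EXT13, an extensin, had 139.8 FPKM in roots, against 0.00842 FPKM in flowers (7.13, with separate bounds), and EXT6 and EXT10 had 60.4 and 58.8 FPKM in roots, against 0.00952 and 0.0275 FPKM in flowers, both with separate bounds. These extensins resemble each other, and reads they share could have been split among them by the authors' counting. The transcription factors that commit a cell to a hair were lower in level and also higher in roots: RHD6 had 9.5 FPKM in roots, against 0.00837 FPKM in flowers, while RSL4 had 8.09 and RSL2 8.9 FPKM in roots and both are listed at 0 in flowers. RBOHC, the NADPH oxidase of hair tips, had 22.9 FPKM in roots, against 2.53 FPKM in flowers (2.76). The members between were RHD4, a lipid phosphatase, with 40 FPKM in roots and 28.1 FPKM in flowers, and SCN1, a regulator of hair initiation, with 79 FPKM in roots and 106.7 FPKM in flowers.

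**Figure D2:**
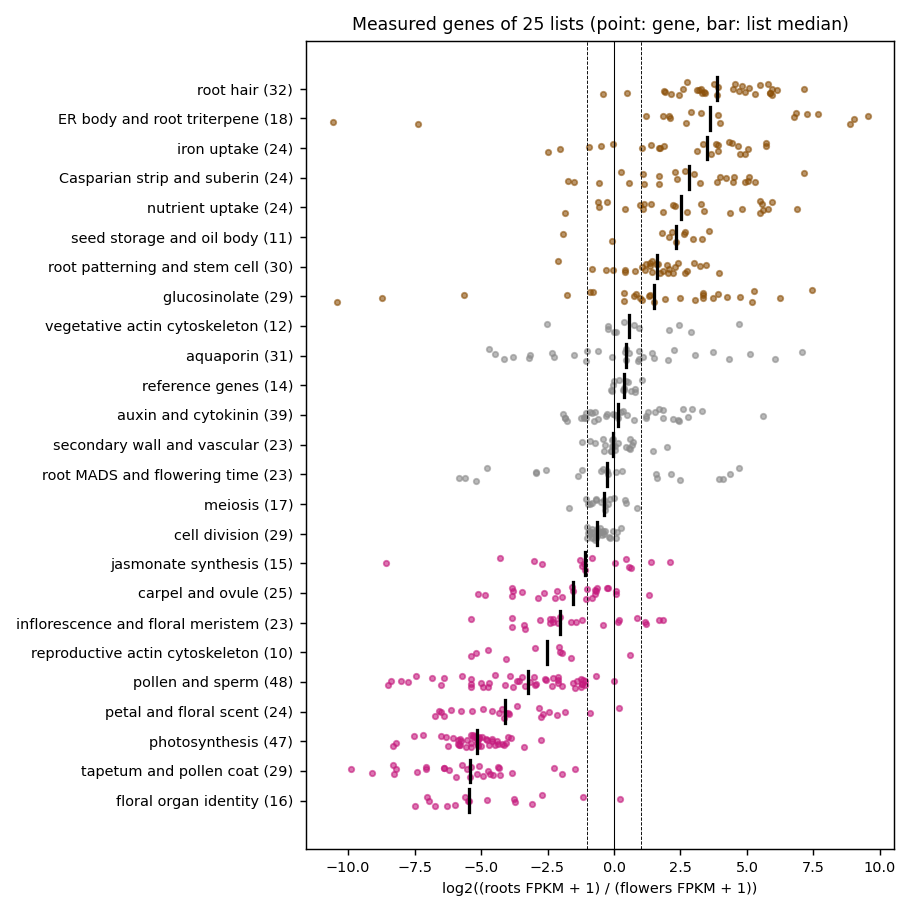
Each point is a measured gene of 1 of 25 lists (the number measured in brackets), placed by log2((roots FPKM + 1) / (flowers FPKM + 1)) with short bars at the list medians and dashed lines at 2-fold. Root hair genes have the highest median, 3.88, and floral organ identity genes the lowest, -5.47, while the glucosinolate list holds members far out on either side.

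Genes of the endodermal barrier were mostly higher in roots: of 24 measured, 19 were higher, 2 lower and 3 between (median 2.83). CASP1, which builds the Casparian strip membrane domain, had 140.7 FPKM in roots, against 0.015 FPKM in flowers (7.13), and MYB36, the factor known to switch on the CASP genes, had 21.2 FPKM in roots, against 0.00854 FPKM in flowers (4.46). CYP86A1, a suberin fatty acid hydroxylase, had 50.7 FPKM in roots, against 0.294 FPKM in flowers (5.32). PER64, a peroxidase of the strip, had 72.5 FPKM in roots, against 1.21 FPKM in flowers, but also 429.0 FPKM in siliques. KCS2 and FAR1, both of which make very long chain suberin precursors, were the lower members: KCS2 had 19.3 FPKM in roots, against 56.6 FPKM in flowers (-1.51), and FAR1 had 13.1 FPKM in roots, against 45.6 FPKM in flowers (-1.72).

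Patterning and stem cell genes differed less in size, with 23 of 30 measured higher in roots, 1 lower and 6 between (median 1.61). WER, which sets non-hair fate in the epidermis, had 18 FPKM in roots, against 0.237 FPKM in flowers (3.94). The root cap factor SMB had 5.52 FPKM in roots, against 0.0179 FPKM in flowers (2.68, with separate bounds). PLT1, a stem cell factor, had 7.12 FPKM in roots and is listed at 0 in flowers, and PLT2, its relative, had 3.82 FPKM in roots, against 0.0296 FPKM in flowers (2.23). WOX5, expressed in the quiescent centre, had 3.46 FPKM in roots, against 0.0655 FPKM in flowers (2.07). SCR, a radial patterning factor also used in shoots, lay between, with 23.6 FPKM in roots and 17.7 FPKM in flowers. ACR4, a receptor kinase of the root stem cell niche and of shoot epidermis, was the lower member, with 2.48 FPKM in roots and 13.9 FPKM in flowers (-2.10).

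Of 24 measured genes of mineral uptake and transport to the shoot, 18 were higher in roots, 1 lower and 5 between (median 2.53). Another 7 members with a locus, NRT2.1 among them, were under 1 FPKM in either library, and with them the median was 1.39. PHT1;1, a phosphate transporter, had 116.5 FPKM in roots, against 0.00668 FPKM in flowers (6.87), and AMT1;3, an ammonium transporter, had 62.9 FPKM in roots, against 0.0391 FPKM in flowers (5.94). The potassium channel AKT1 had 84.6 FPKM in roots, against 0.765 FPKM in flowers (5.60). PHO1, which loads phosphate into the xylem, had 240.4 FPKM in roots, against 4.09 FPKM in flowers (5.57). Outside the list, NRT1.5, which loads nitrate into the xylem, had 583.2 FPKM in roots, against 21.9 FPKM in flowers (4.67), and NRT1.7, which loads nitrate into the phloem, had 0.841 FPKM in roots, against 81.1 FPKM in flowers (-5.48). HKT1, a sodium transporter, was the lower member of the list, with 5.71 FPKM in roots and 23.4 FPKM in flowers (-1.86).

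The iron deficiency response is known to run through the factor FIT, the reductase FRO2 and the transporter IRT1, and 19 of 24 measured iron genes were higher in roots, 2 lower and 3 between (median 3.49). FRO2 had 148.6 FPKM in roots, against 3.93 FPKM in flowers (4.92, with separate bounds), and IRT1 had 373.1 FPKM in roots, against 16.5 FPKM in flowers (4.42). FIT1 had 39.3 FPKM in roots, against 0.603 FPKM in flowers (4.65), and CYP82C4, which oxidises iron-mobilising coumarins, had 58.9 FPKM in roots, against 0.132 FPKM in flowers (5.73). BHLH38, a partner factor of FIT, had 11.6 FPKM in roots, against 0.0241 FPKM in flowers, and it had 20.7 FPKM in leaves. AHA2, the proton pump that acidifies the soil around roots, had 868.9 FPKM in roots, against 60.4 FPKM in flowers (3.82). The lower members were the ferritins FER1 and FER4, which store iron in plastids: FER1 had 47.3 FPKM in roots and 196.1 FPKM in flowers (-2.03), and FER4 had 9.92 FPKM in roots and 59.9 FPKM in flowers (-2.48).

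Among the ER body proteins, which hold beta-glucosidases and the lectins that aggregate them, and the root triterpene genes, 16 of 18 measured were higher in roots and 2 were lower (median 3.60). PBP1, which binds PYK10, had 1269.3 FPKM in roots, against 0.708 FPKM in flowers, and at 9.54 it had the largest difference of any singly named gene with separate bounds. BGLU21 and BGLU22 had 589.1 and 205.3 FPKM in roots, against 0.264 and 0.0191 FPKM in flowers. NAI2, needed for ER bodies to form, had 336.1 FPKM in roots, against 1.21 FPKM in flowers (7.25). The lower members are relatives of these same proteins. BGLU18 had 0.285 FPKM in roots, against 1970.1 FPKM in flowers (-10.58), with 91.2 FPKM in leaves and 878.8 FPKM in siliques, and the lectin JAL23 had 0.0214 FPKM in roots, against 169.6 FPKM in flowers (-7.38). JAL22, another lectin of this family, had 113.2 FPKM in roots, against 0.044 FPKM in flowers (6.77).

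Myrosinases, which break glucosinolates down when tissue is damaged, were split in the same way. TGG4 had 75 FPKM in roots and is listed at 0 in flowers. TGG1 had 2.26 FPKM in roots, against 1379.2 FPKM in flowers (-8.73), and TGG2 had 0.317 FPKM in roots, against 1797.0 FPKM in flowers (-10.41). Both were also high in leaves, at 1940.0 FPKM for TGG1 and 400.5 FPKM for TGG2. The whole glucosinolate list had 18 members higher in roots of 29 measured, 4 lower and 7 between (median 1.49). CYP79B3 and CYP83B1, early enzymes of the indole branch, had 72.3 and 134.5 FPKM in roots, against 3.88 and 22.9 FPKM in flowers. IGMT1, an indole glucosinolate methyltransferase, had 198.9 FPKM in roots, against 0.157 FPKM in flowers (7.43), and MYB51, a regulator of the branch, had 36.4 FPKM in roots, against 0.402 FPKM in flowers (4.74). Some members of the aliphatic branch were higher as well. BCAT4, which starts methionine chain elongation, had 55.3 FPKM in roots, against 1.96 FPKM in flowers (4.25), and CYP79F2 had 19.7 FPKM in roots, against 0.556 FPKM in flowers (3.74). In leaves BCAT4 had 96.9 FPKM and CYP79F2 6.55 FPKM. Other aliphatic members lay between: MYB28 (0.39), CYP79F1 (0.36) and FMOGS-OX3 (-0.80). CYP81F1, an indole glucosinolate hydroxylase, was lower, with 3.9 FPKM in roots and 15.8 FPKM in flowers (-1.78). ESM1, known to direct breakdown toward isothiocyanates, had 0.609 FPKM in roots, against 79.8 FPKM in flowers (-5.65).

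Water channels showed no common direction, with 11 higher in roots, 11 lower and 9 between of 31 measured (median 0.46). The tonoplast channels TIP2;3 and TIP2;2 had 135.7 and 572.6 FPKM in roots, against 0.0221 and 15.6 FPKM in flowers. The pollen tonoplast channel TIP1;3 had 0.0079 FPKM in roots, against 21.4 FPKM in flowers (-4.48), and PIP2;6, a plasma membrane channel, had 4.54 FPKM in roots, against 142.2 FPKM in flowers (-4.69). Of the 31 measured channels the most abundant in roots, PIP1B, differed little, with 1146.5 FPKM in roots and 853.4 FPKM in flowers. TIP1;2, PIP1;4 and NIP3;1 had no locus of their own and could not be ranked. Wood-type secondary wall genes also differed little: 20 of 23 measured lay within 2-fold (median -0.02), and the cellulose synthase IRX5 had 21.7 FPKM in roots and 23.4 FPKM in flowers, with 170.7 FPKM in siliques.

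Floral organ identity genes were nearly silent in roots: 15 of 16 measured were at least 2-fold lower and 1, AP2, lay between (median -5.47). SEP3, a cofactor of all the floral combinations, is listed at 0 in roots and had 177.8 FPKM in flowers, with separate bounds and with 4.91 FPKM in leaves and 186.0 FPKM in siliques. PI and AP3, the petal and stamen pair, had 0.912 and 0.117 FPKM in roots, against 237.9 and 118.7 FPKM in flowers. AG, the stamen and carpel factor, is listed at 0 in roots and had 43.2 FPKM in flowers. AP1, which marks sepals and petals, had 0.00829 FPKM in roots, against 77.3 FPKM in flowers (-6.28). AP2, which is not a MADS-domain factor, had 23.7 FPKM in roots and a log2 difference of 0.22.

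Other MADS-box genes ran the opposite way. AGL17 had 25.3 FPKM in roots, against 0.0139 FPKM in flowers (4.70), and AGL21, which acts in lateral root growth, had 27.5 FPKM in roots, against 0.39 FPKM in flowers (4.36). AGL14 had 16.8 FPKM in roots, against 0.0314 FPKM in flowers (4.11), and AGL12, a root meristem factor, had 24.1 FPKM in roots, against 0.62 FPKM in flowers (3.95). AGL44, known as the nitrate-response factor ANR1, had 15 FPKM in roots, against 1.84 FPKM in flowers. None of these 5 was above 0.237 FPKM in leaves. FLC, a repressor of flowering, was low in either library, at 2.56 FPKM in roots and 3.73 FPKM in flowers.

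**Figure D3:**
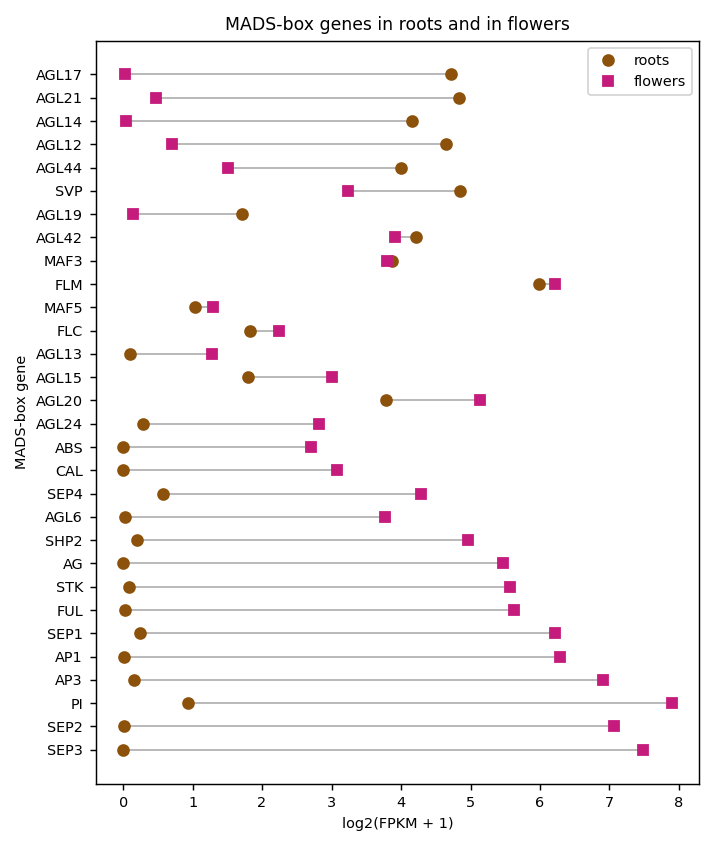
Levels of the 30 measured MADS-box genes of the floral organ identity and flowering time lists, as log2(FPKM + 1), in wild-type roots (circles) and wild-type flowers (squares), ordered by their difference with the most root-high at the top. Of the 30, 7 were at least 2-fold higher in roots and 18 at least 2-fold lower, with the floral identity genes at the bottom.

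The age pathway acts through SPL factors, of which SPL3, SPL4, SPL5, SPL9 and SPL15 are in the flowering time list, with log2 differences between -5.83 and -2.95. SPL3 and SPL4 had 0.386 and 0.0865 FPKM in roots, against 66.8 and 60.7 FPKM in flowers, and SPL9 had 0.32 FPKM in roots, against 47.3 FPKM in flowers (-5.19, with separate bounds). In leaves, at the age of the roots, SPL3 had 10.7 FPKM and SPL9 6.64 FPKM. GI, a circadian clock protein, was higher in roots, with 46.1 FPKM, against 9.71 FPKM in flowers (2.14), and harvest time of day is not given in the sources used here. The list of root MADS and flowering time genes had 8 higher, 9 lower and 6 between of 23 measured (median -0.26).

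Inflorescence and floral meristem genes were lower in roots for 15 of 23 measured, higher for 4 and between for 4 (median -2.02, or -1.42 with the members under 1 FPKM). Over all measured rows 25.0% were lower and 17.2% higher, so the part higher here was near that of all rows. STM, which keeps the shoot meristem undifferentiated, had 0.0174 FPKM in roots, against 41.2 FPKM in flowers (-5.37), and WUS, the organizer factor of shoot and floral meristems, is listed at 0 in roots and had 9.35 FPKM in flowers. The members higher in roots were AIL6, CLV1, PUCHI and FD. AIL6, also called PLT3, and PUCHI are counted in the patterning list as well. AIL6 had 23.4 FPKM in roots and 5.76 FPKM in flowers. PNY, also called RPL (-3.85), is counted as lower both here and in the carpel and ovule list. FD, the partner of the flowering signal FT, had 9.45 FPKM in roots, against 2.23 FPKM in flowers (1.70). Of 25 measured carpel and ovule genes, 15 were lower in roots, 1 higher and 9 between (median -1.54). CRC, a carpel and nectary factor, is listed at 0 in roots and had 27.8 FPKM in flowers, and INO, an ovule integument factor, is listed at 0 in roots and had 12.8 FPKM in flowers. ATS, also an ovule integument factor, was the higher member, with 11.6 FPKM in roots and 4.1 FPKM in flowers (1.30).

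All 29 measured genes of the tapetum and pollen coat were at least 2-fold lower in roots (median -5.43). GRP19 and GRP17, oleosin-like proteins of the pollen coat, had 0.124 and 0.0353 FPKM in roots, against 1073.6 and 562.9 FPKM in flowers. LTP12, a tapetal lipid transfer protein, had 0.0114 FPKM in roots, against 310.5 FPKM in flowers (-8.27), the most negative difference among singly named genes with separate bounds. AMS, the bHLH factor of tapetum development, had 0.2 FPKM in roots, against 29.3 FPKM in flowers (-4.66). In siliques, from plants of the same age, GRP17 had 0.00638 FPKM and LTP12 0.0744 FPKM. CER1, which makes the alkanes of cuticle wax as well as of the pollen coat, had 0.579 FPKM in roots, against 459.8 FPKM in flowers, and it had 525.3 FPKM in siliques.

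Of 48 measured genes of pollen, pollen tube and sperm, 46 were lower in roots and 2 lay between (median -3.24). VGD1, a pectin methylesterase of the pollen tube, had 0.0162 FPKM in roots, against 341.6 FPKM in flowers (-8.40). AGP6, a pollen arabinogalactan protein, had 0.392 FPKM in roots, against 160.4 FPKM in flowers (-6.86). HTR10, the sperm histone, had 0.00814 FPKM in roots, against 6.73 FPKM in flowers (-2.94), and ANX2, a receptor kinase that keeps the tube intact, is listed at 0 in roots and had 13.9 FPKM in flowers, with separate bounds. The members between were GAUT13, a pectin synthesis enzyme, with 16.7 FPKM in each library, and AGL29, with 0.406 FPKM in roots and 1.26 FPKM in flowers. Meiotic genes did not share this size of difference: of 17 measured, 2 were lower in roots and 15 lay between (median -0.38), and DMC1, the meiotic recombinase, had 3.48 FPKM in roots and 13.3 FPKM in flowers (-1.68).

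Petal, scent and flavonoid genes were lower in roots for 22 of 24 measured, with 2 between (median -4.09). TPS21 and TPS11, the terpene synthases that make most floral sesquiterpenes, are both listed at 0 in roots and had 53.7 and 106.8 FPKM in flowers. CYP706A3, a neighbour of TPS11 that oxidises floral terpenes, is listed at 0 in roots and had 88.6 FPKM in flowers, and MYB21, a petal and stamen factor, is listed at 0 in roots and had 68.5 FPKM in flowers. All 4 had separate bounds, which for genes listed at 0 in roots rest on the lower bound in flowers alone. FLS1, a flavonol synthase, had 8.81 FPKM in roots, against 169.7 FPKM in flowers (-4.12). LOX2, a plastid lipoxygenase of jasmonate synthesis, had 0.0298 FPKM in roots, against 396.8 FPKM in flowers (-8.59), whereas the allene oxide cyclase AOC3 had 34.1 FPKM in roots, against 7.1 FPKM in flowers (2.11). Over the jasmonate list, 8 of 15 measured were lower in roots, 2 higher and 5 between (median -1.10). This median came within 2-fold under 4 of 7 alternatives, between -0.96 and -0.55.

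Photosynthesis genes were lower in roots for all 47 measured (median -5.15), and made up 0.17% of the summed FPKM in roots and 5.92% in flowers. RBCS1A, a small subunit of Rubisco, had 89.3 FPKM in roots, against 5997.8 FPKM in flowers (-6.05), the highest level of any singly named gene in flowers. CA1, a carbonic anhydrase, had 1.08 FPKM in roots, against 613.4 FPKM in flowers (-8.20). CAB1, a light-harvesting protein, had 108.4 FPKM in roots, against 2269.4 FPKM in flowers (-4.38). Of 70 chloroplast-encoded rows only 29 were measured, with 0 higher and 23 lower (median -1.82). They made up 0.0173% of the summed FPKM in roots and 0.19% in flowers, so few of their transcripts were counted. Of 166 mitochondrial rows 24 were measured: 1 was higher, 2 were lower and the rest lay between (median -0.35).

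Promoters of photosynthesis genes are shown for a pair of light-response elements. The G-box (CACGTG) stood in 12 of 47 photosynthesis windows (25.5%) and in 8.74% of 19591 measured genes. The I-box (GATAAG, its reverse CTTATC) stood in 21 of 47 (44.7%), beside 14.6% of measured genes. In the iron list, mostly higher in roots, the G-box stood in 6 of 24 windows (25%), and in the seed storage list in 5 of 11 (45.5%). Both strands were searched, no motif overlaps the other in the windows printed, and a match is a description of letters. RBCS3B (-8.30) and CA1 (-8.20), among the largest differences of the list, have neither motif in their windows. PSAH2, a subunit of photosystem I (chr1:19454548-19454847, plus strand), had 4.97 FPKM in roots, against 473.3 FPKM in flowers (-6.31), and LHCB6, an antenna protein (chr1:5447831-5448130, minus strand), had 14.7 FPKM in roots, against 577.4 FPKM in flowers (-5.21). Capitals mark the motifs.
PSAH2: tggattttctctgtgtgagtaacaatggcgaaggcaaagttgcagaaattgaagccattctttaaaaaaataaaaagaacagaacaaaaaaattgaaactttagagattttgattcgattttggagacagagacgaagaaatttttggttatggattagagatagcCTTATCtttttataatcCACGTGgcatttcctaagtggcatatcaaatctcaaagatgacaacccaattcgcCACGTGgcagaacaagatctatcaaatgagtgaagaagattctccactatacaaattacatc
LHCB6: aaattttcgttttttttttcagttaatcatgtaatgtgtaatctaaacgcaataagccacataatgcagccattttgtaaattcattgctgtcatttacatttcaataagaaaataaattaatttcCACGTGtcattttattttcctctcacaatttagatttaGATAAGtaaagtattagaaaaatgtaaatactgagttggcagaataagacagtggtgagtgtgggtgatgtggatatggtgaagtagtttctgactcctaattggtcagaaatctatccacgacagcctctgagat

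Actins, the filament proteins of the cytoskeleton, are known as a vegetative and a reproductive class. ACT2 and ACT8 had 696.7 and 662.5 FPKM in roots, against 165.8 and 121.6 FPKM in flowers. ACT12 is listed at 0 in roots and had 35.6 FPKM in flowers, and ACT4 had 0.415 FPKM in roots, against 22.7 FPKM in flowers (-4.07). ACT7, also vegetative, lay between, with 358.2 FPKM in roots and 423.7 FPKM in flowers. Of the whole vegetative list of actins, profilins, depolymerising factors and tubulins, 4 of 12 measured were higher in roots, 1 lower and 7 between (median 0.57), and of the reproductive list 9 of 10 were lower and 1 between (median -2.52). Reads shared between actins could have been split among them.

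Auxin and cytokinin genes were split by member, with 15 of 39 measured higher in roots, 9 lower and 15 between (median 0.15). Over all measured rows 17.2% were higher and 25.0% lower, so the part lower here was near that of all rows. PIN2, the auxin carrier of root epidermis, had 69.5 FPKM in roots, against 0.46 FPKM in flowers (5.59), while PIN8, a carrier of pollen, had 0.0106 FPKM in roots, against 2.67 FPKM in flowers (-1.86). IPT5 and IPT3, cytokinin synthesis enzymes, had 11.4 and 6.53 FPKM in roots, against 0.236 and 0.108 FPKM in flowers. Cell division genes mostly lay within 2-fold, 27 of 29 measured, with 2 lower in roots (median -0.64); the replication helicase subunit MCM3 had 11 FPKM in roots and 23.3 FPKM in flowers. Of 14 reference genes 13 lay within 2-fold and UBQ10 was higher in roots (median 0.38). The median of these genes stayed between 0.35 and 0.45 under each scaling, filter and pseudocount tried.

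Seed storage and oil body genes were low in either library and mostly higher in roots, with 9 of 11 measured higher, 1 lower and 1 between (median 2.33). Only 11 of 19 members with a locus were measured, most of them through their level in roots: with the others the median was 0.73, and with 5 FPKM added in place of 1 it was 0.94, both within 2-fold. SESA5, a 2S albumin, had 10.8 FPKM in roots and is listed at 0 in flowers, and CRA1, a cruciferin, had 6.11 FPKM in roots, against 0.127 FPKM in flowers (2.66). In leaves from plants of the same age, SESA5 had 0.254 FPKM and CRA1 0.295 FPKM. FUS3, a seed maturation regulator, ran the other way, with 0.0235 FPKM in roots and 2.87 FPKM in flowers (-1.92).

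Several genes outside the lists were among the largest differences with separate bounds. DOT1, a glycine-rich protein, had 1297.5 FPKM in roots, against 14.4 FPKM in flowers (6.39), and WRKY65, a WRKY factor, had 139.9 FPKM in roots, against 0.189 FPKM in flowers (6.89). BT2, a BTB and TAZ domain protein known for nitrate responses, had 174.5 FPKM in roots, against 0.735 FPKM in flowers (6.66), but also 269.1 FPKM in leaves. AT5G46900, of the lipid transfer protein superfamily, had 169.5 FPKM in roots, against 0.011 FPKM in flowers (7.40), and AT5G48110, of the terpenoid cyclase superfamily, had 104.3 FPKM in roots, against 0.384 FPKM in flowers (6.25). On the flower side, HA9, a plasma membrane proton pump, had 0.0351 FPKM in roots, against 103.6 FPKM in flowers (-6.66), and LCR17, a small cysteine-rich protein, had 0.0102 FPKM in roots, against 107.3 FPKM in flowers (-6.74). SQP1, of the squalene epoxidase kind, had 0.119 FPKM in roots, against 112.1 FPKM in flowers (-6.66), and 31.4 FPKM in siliques.

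**Figure D4:**
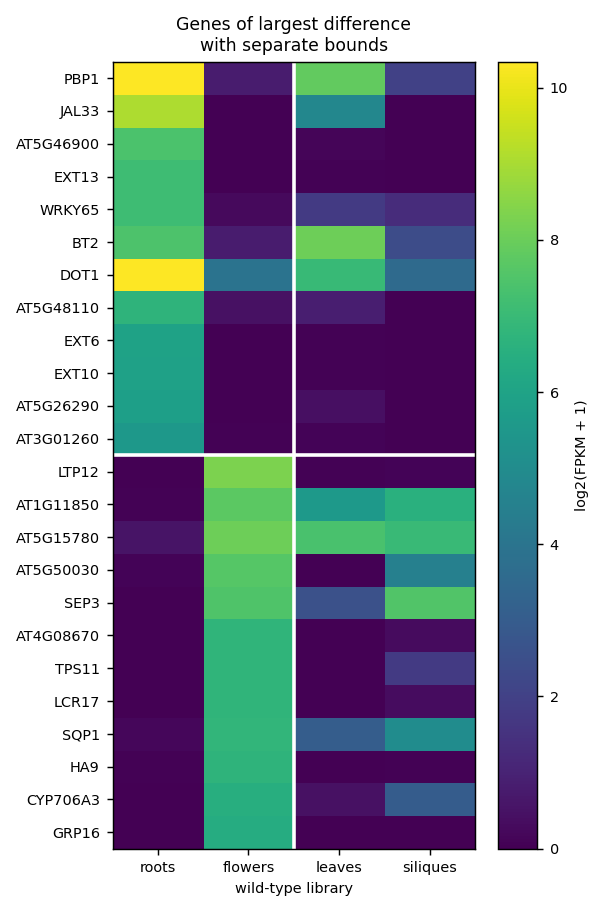
Levels, as log2(FPKM + 1), of the 12 genes of largest and the 12 of smallest log2 difference with separate bounds, in wild-type roots and flowers (left of the white line) and in wild-type leaves and siliques (right of it). EXT13 and AT5G46900 had at most 0.106 FPKM in the other 3 libraries, while PBP1 had 229.7 FPKM and BT2 269.1 FPKM in leaves, and SEP3 had 186.0 FPKM in siliques.

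By level alone, PYK10, EXT3 and AT3G09250 could not be ranked, since they were flagged for too many reads in roots. Among the other singly named measured genes, TCTP, a translation-related protein, was the most abundant in roots. TCTP had 4402.0 FPKM in roots, against 2877.0 FPKM in flowers (0.61). GRP9, a glycine-rich protein, followed with 2207.5 FPKM in roots, against 0.00864 FPKM in flowers (11.10), but its bounds were not separate, since its lower bound in roots is 0. UBQ3, a polyubiquitin, had 1888.0 FPKM in roots, against 160.4 FPKM in flowers (3.55), and AT2G43150, an extensin-like gene, had 1835.0 FPKM in roots, against 22.6 FPKM in flowers (6.28). In flowers, LP1, a lipid transfer protein, followed RBCS1A, with 6.49 FPKM in roots and 3443.2 FPKM in flowers (-8.84).

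Gene families were counted by symbol or annotated product, so members annotated otherwise are left out. Members under 1 FPKM in both libraries were not counted, and some entered only through the organ where they were high. The counts are therefore of measured members and not of whole families. Their counts stand beside 17.2% of all measured rows at least 2-fold higher in roots and 25.0% at least 2-fold lower. Of 61 measured class III peroxidases, secreted wall enzymes, 42 were higher in roots and 15 lower: AT5G64100 had 355.2 FPKM in roots, against 0.126 FPKM in flowers (8.31), and AT5G47000 had 1.63 FPKM in roots, against 61 FPKM in flowers (-4.56). Cysteine/Histidine-rich C1 domain proteins were higher in roots for 71 of 84 and lower for 3, with AT5G43520 at 70.6 FPKM in roots, against 0.0354 FPKM in flowers (6.11). WRKY factors were higher in roots for 30 of 52 and lower for 5, while WRKY34, of pollen, had 0.0172 FPKM in roots, against 1.68 FPKM in flowers (-1.40). ERF factors, of ethylene and stress responses, were higher for 13 of 19 and lower for 2, with ERF73 at 51.1 FPKM in roots, against 1.29 FPKM in flowers (4.50). Tau glutathione transferases, detoxifying enzymes, were higher for 13 of 18 and lower for 3. GSTU8 had 193.7 FPKM in roots, against 0.203 FPKM in flowers (7.34), and GSTU5 had 7.59 FPKM in roots, against 117.7 FPKM in flowers (-3.79). Laccases, which polymerise phenolics, were higher for 9 of 15 and lower for 0, with LAC3 at 48.9 FPKM in roots, against 0.00555 FPKM in flowers (5.63).

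Other families were mostly lower in roots, beside 25.0% lower and 17.2% higher over all measured rows. Pectin methylesterases and their inhibitors, which set wall stiffness, were lower for 58 of 87 and higher for 16, and AT5G04960 had 25.8 FPKM in roots, against 0.00247 FPKM in flowers (4.74). RALF peptides, signals of cell growth, were lower for 16 of 23 and higher for 3: RALFL8 is listed at 0 in roots and had 442.2 FPKM in flowers, while RALFL27 had 28.9 FPKM in roots, against 0.0155 FPKM in flowers (4.88). Defensin-like genes were lower for 64 of 81 and higher for 12, of which PDF2.1 had 169.4 FPKM in roots, against 0.801 FPKM in flowers (6.56). TCP factors of shoot growth were lower for 14 of 20 and higher for 1, and TCP15 had 2.86 FPKM in roots, against 46.5 FPKM in flowers (-3.62). GDSL lipases were lower for 41 of 63 and higher for 14: AT5G45950 had 0.103 FPKM in roots, against 241.7 FPKM in flowers (-7.78). SAUR genes, many of them quickly induced by auxin, were lower for 38 of 60 and higher for 15, while AT5G50760 had 88.2 FPKM in roots, against 0.0146 FPKM in flowers (6.46). Sucrose and hexose carriers were lower for 19 of 31 and higher for 5: SWEET1, a glucose carrier, had 0.558 FPKM in roots, against 202.0 FPKM in flowers (-7.03), and SWEET16, a vacuolar carrier, had 23.9 FPKM in roots, against 0.337 FPKM in flowers (4.22). The xyloglucan-modifying XTH enzymes were split, 16 of 30 higher and 9 lower: XTH31 had 79 FPKM in roots, against 0.0935 FPKM in flowers (6.19), and XTH6 had 0.155 FPKM in roots, against 96 FPKM in flowers (-6.39). Cytochromes P450 were nearly even in count, with 65 of 169 higher and 62 lower. Ribosomal proteins mostly lay between, 223 of 259, with 4 higher and 32 lower.

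**Figure D5:**
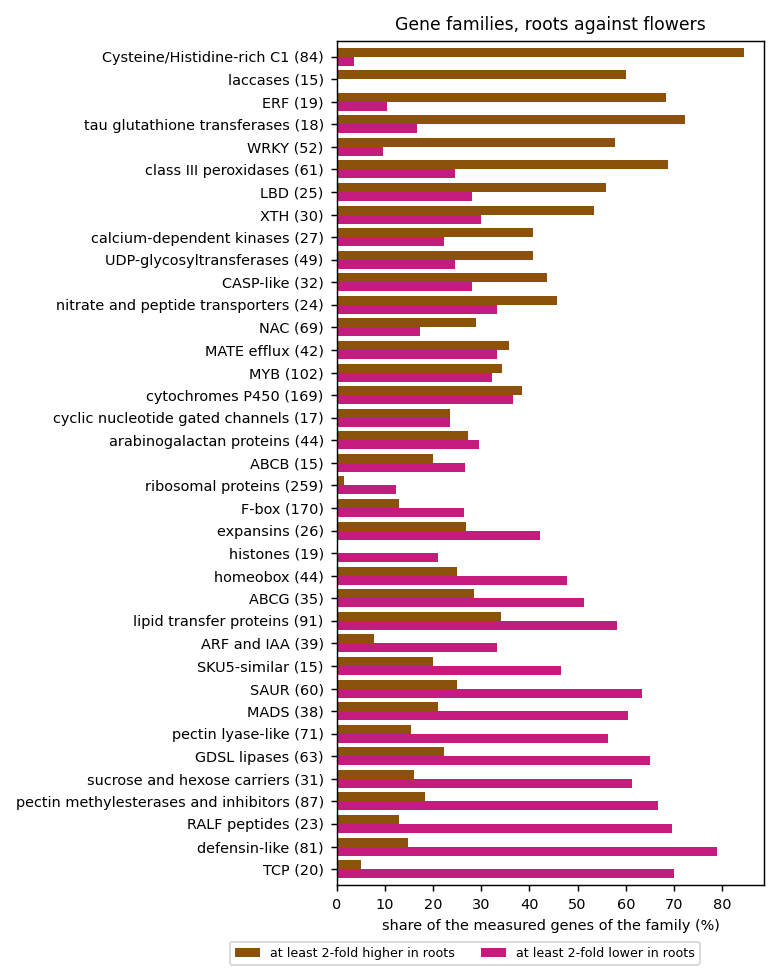
For 37 gene families with at least 15 measured members (number in brackets), the share of members at least 2-fold higher in roots (upper bar) and at least 2-fold lower in roots (lower bar), in percent. Cysteine/Histidine-rich C1 proteins, with 71 of 84 higher, head the plot and TCP factors, with 14 of 20 lower, close it.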

How the data were processed

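RNA was sequenced from whole organs after TruSeq RNA version 2 library preparation per the labels' protocols. TopHat, Cufflinks and the TAIR10 genome are named, without versions, in the submitters' processing notes. The deposited table gives, per the file headers, an FPKM, its bounds and a status per locus and library. The status, the authors' quantification flag, is text. The FPKM values and bounds of the wild-type libraries were used as deposited; read counts were not used here and the depth of either library is not given. Low FPKM values, multiplied by transcript length in kilobases, had medians of 0.00569 in roots and 0.00578 in flowers within a window set beforehand. The window was the same for both libraries, so these medians cannot show whether the depths were alike.

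Rows with status OK in both libraries and at least 1 FPKM in either were kept (22531, of which 19897 with a single name on a single row). Rows with several names (970), no name (164) or a repeated name (1500) entered no list. Values with another status were left out, also in leaves and siliques. Names came from RefSeq, TAIR10.1, matching 24885 of 29994 singly named rows; the gene overlapped the deposited locus for 99.9% of them. A deposited locus can hold several genes. The kit is not stated to mark strand, so reads of overlapping antisense genes cannot be told apart. The 25 lists, the families and the comparison were chosen with earlier results of these data known. Named genes are the 12 largest and 12 smallest log2 differences with separate bounds, list members, the extremes of 41 families and the 5 highest per organ. None of the table's value columns used lacked a sample (0 unmapped). Genes of another kind that share a family's symbol were left out by annotated product. The counting of rows past 2-fold was tested on known folds planted without noise in a copy of the root library. This checks the arithmetic only, and the lists, families, runs and promoters were not part of it. Python 3.11.15, numpy 2.4.6, pandas 2.3.3 and matplotlib 3.10.9 were used.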

Additional observations from a re-analysis of the deposited data

How the results depend on the processing

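The counts depended on the added FPKM and the fold limit: with 5 FPKM added, 2537 rows were at least 2-fold higher in roots and 3354 lower, and with a 4-fold limit 1943 were higher and 2864 lower. With 5 FPKM added, the list medians that came within 2-fold were those of root patterning (0.68), inflorescence meristem (-0.84), carpel and ovule (-0.48), jasmonate (-0.55) and seed storage (0.94). The jasmonate median was also -0.81 with a minimum of 5 FPKM, -0.96 with no minimum and -0.75 after quantile scaling, and the seed storage median was 0.73 with no minimum. Within their side of 2-fold, the medians of mineral uptake (1.39) and inflorescence meristem (-1.42) came closer to 0 with no minimum, and those of carpel and ovule (-2.65) and pollen (-3.85) lay further from 0 with a minimum of 5 FPKM. The cause was not tested. The other 20 of 25 lists kept their side of 2-fold under 7 alternatives. Of 628 named genes, 508 kept their side under those alternatives that covered them. Another minimum leaves the difference of a single gene as it is, and the minimum of 5 FPKM drops the genes below it. Only another added FPKM or a scaling could therefore move a named gene. No sign reversed among named genes past 2-fold, but another added FPKM or minimum cannot reverse a sign. Only the scalings could have done so. Of 41 families, 24 kept their side under all 7, a check added after seeing the data. Taking the minimum away could not change a family, since only measured members were counted. Quantile scaling put the median of all rows at 0.123, against -0.054 as deposited, and the share higher in roots among rows past 2-fold at 48.6%, against 40.9%. No paired analysis was possible because there is 1 library per organ, and no replicate could be left out. The deposited bounds, with a lower bound of 0 for most rows, limit what low genes can show.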

Other observations

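Neighbouring genes of like direction stood in runs along the chromosomes. Over 19592 measured genes with a RefSeq position, runs of at least 4 neighbours that were each at least 8-fold higher in the same organ were found 4 times in roots (17 genes) and 6 times in flowers (28 genes). The root runs hold mostly members of 1 family. PBP1, JAL31, MLP-300B, JAL33 and JAL34, lectins of the ER body system, lie on chromosome 3 from 5579290 to 5595912 with log2 differences between 5.67 and 9.54. IGMT1, IGMT3, IGMT2 and IGMT4, indole glucosinolate methyltransferases on chromosome 1 from 7386762 to 7400736, lie between 5.18 and 7.43. IGMT4 differs from the other 3 in leaves, where it had 219.1 FPKM. In flowers, the pollen coat genes GRP14, GRP18, GRP17, GRP16 and GRP19 lie on chromosome 5 from 2377703 to 2389249, between -9.90 and -4.94, and the lipases EXL4 (AT1G75910), EXL5 (AT1G75920) and EXL6 (AT1G75930) lie beside ATA27, a tapetal beta-glucosidase listed at 0 in roots and at 269.0 FPKM in flowers. The longest run, 6 genes from AT3G28770 to AT3G28840, consists mainly of proteins annotated with domain DUF1216. Near-identical neighbours can share reads, and how far this sets the runs was not tested. Runs were chosen after their values were seen.

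Nearby genes with the same annotated product, within 10 genes of each other, differed in opposite directions in 20 pairs, each gene by at least 8-fold. The pairs are not separate cases, since AT1G30710, AT1G51805, AT1G52000 and AT1G54020 each recur among them. All nearby pairs of the same product were not counted, so no share can be given. The closest lipase pair lies 691 bases apart: AT1G54010 had 48.4 FPKM in roots, against 3.7 FPKM in flowers (3.39), and AT1G54020 had 0.316 FPKM in roots, against 66.6 FPKM in flowers (-5.68). AT4G15610 had 269.7 FPKM in roots, against 6.23 FPKM in flowers (5.23), while AT4G15620, of the same membrane protein family, had 0.257 FPKM in roots, against 34.7 FPKM in flowers (-4.83). These pairs were likewise chosen after their values were seen.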
